A study of Homo sapiens with 6 samples.

Results

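The genes described here are 42 components and regulators of the actin cytoskeleton together with the transcription factor SRF and its MRTF coactivators, a module in which many of the structural genes are themselves known SRF/MRTF targets. They were picked by gene symbol from knowledge of this pathway, with earlier results of these data known. The immediate early genes that SRF also controls were left out. All 42 were found among the 62700 genes of the count table, and 41 passed the filter on low counts. The exception was CNN1, a smooth muscle calponin.

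SRF (serum response factor) binds a short DNA element called the CArG box. The coactivators MRTFA and MRTFB are held in the cytoplasm by monomeric actin and are freed to enter the nucleus when monomers are built into filaments, so the state of the filaments feeds back on the transcription of actin and of the proteins that bundle, contract and anchor it. In epithelial and carcinoma cells these proteins form stress fibres, the cortical actin belt and focal adhesions. SRF mRNA has been described as a target that IGF2BP1, an oncofetal RNA-binding protein, binds and stabilises in tumour cells.

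The samples were 6 poly(A) RNA libraries of SAS, an established line derived from a squamous cell cancer. Of these, 3 came from cells given a control siRNA and labelled wild type, and 3 were knockdown libraries from cells that received an siRNA to IGF2BP1, a transient reduction of the mRNA and not a deletion. The series addresses how IGF2BP1 relates to YAP1 and its control by the Hippo pathway. From the labels, neither the sequence of the siRNA nor the time after transfection nor the origin of the replicates (separate cultures or not) can be read. The p-values therefore measure how far these 6 libraries spread, which may be technical only. RNA was extracted with TRIZOL and made into strand-marked libraries with dUTP from randomly primed fragments.

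The libraries held between 17918496 and 26675064 reads, with the lowest total in knockdown 1. That library also stood apart within its group: the chi-square of replicate counts per degree of freedom was 36.2 and 31.2 for its pairs with the other knockdown libraries, against 18.2 between those and 14.6 to 15.3 among the controls. IGF2BP1 itself was at 8.11, 9.60 and 11.2 CPM (read counts relative to TMM-scaled library size) in the controls and at 1.59, 1.09 and 0.806 CPM in the knockdown, an 8.39-fold reduction (log2 fold change -3.07, SE 0.304; adjusted p = 4.56e-06, edgeR quasi-likelihood test with Benjamini-Hochberg adjustment, used for every adjusted p below). Of 14 squamous epithelial markers, all were measured, 6 fell (KRT5, KRT14, KRT6A, CDH1, PKP1 and LAMB3), 0 rose, and their summed level went from 14489 to 15406 CPM in the controls to 8636 to 10396 CPM in the knockdown. Markers of other cell types were low in both groups: the summed level was 5.21 to 8.90 against 6.96 to 11.8 CPM for smooth muscle, 6.37 to 8.54 against 5.72 to 9.29 CPM for fibroblasts, 6.29 to 7.41 against 6.43 to 13.5 CPM for endothelium and 17.1 to 18.4 against 12.1 to 14.2 CPM for leukocytes, control range first. The defining markers DES, MYOCD, COL3A1, LUM, DCN, POSTN, THY1, KDR, CLDN5, PTPRC and CD3E had 0 reads in all 6 libraries, and PDGFRB, at 0.605 against 1.73 CPM, rose (log2 fold change 1.52, adjusted p = 0.0491). The part of these marker changes in the members' results was not tested. In bulk RNA, fewer cells of a type and less RNA per cell cannot be told apart.

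After knockdown, SRF, the non-muscle myosin heavy chain gene MYH9 and the alpha-actinin gene ACTN4 fell, while the calponin CNN2, the LIM protein PDLIM7, the tropomyosin TPM2, the myosin light chains MYL12A and MYL9 and the filament disassembly factor WDR1 rose. These 9 genes, 6 higher and 3 lower, were the members past an adjusted p of 0.05. Across all 14649 tested genes 12.9% were called, 6.27% higher and 6.66% lower. Among the 41 tested members the shares were 22% in all, 14.6% higher and 7.32% lower, so the lower share was close to that of all genes. The median log2 fold change was 0.17 over the tested members and 0.03 over all tested genes, with 30 members above 0 and 11 below. The libraries of the groups did not overlap for 9 members in the higher direction (22%, against 15.5% of all tested genes) and for 4 in the lower direction (9.76%, against 15.1%). Because the members were picked with earlier results of these data known, these shares are a description beside those of all genes. The count of 6 rises depended on the analysis: it was 3 without control 1, control 3 or knockdown 3, 4 without control 2 or knockdown 1, and 8 without knockdown 2. It was 10 with no scaling factor or with the replicate number as a block, and 2 when a minimum fold of 1.2 was required. The 3 falls were called in each of these analyses except the last, which called 2 of them.

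**Figure D1:**
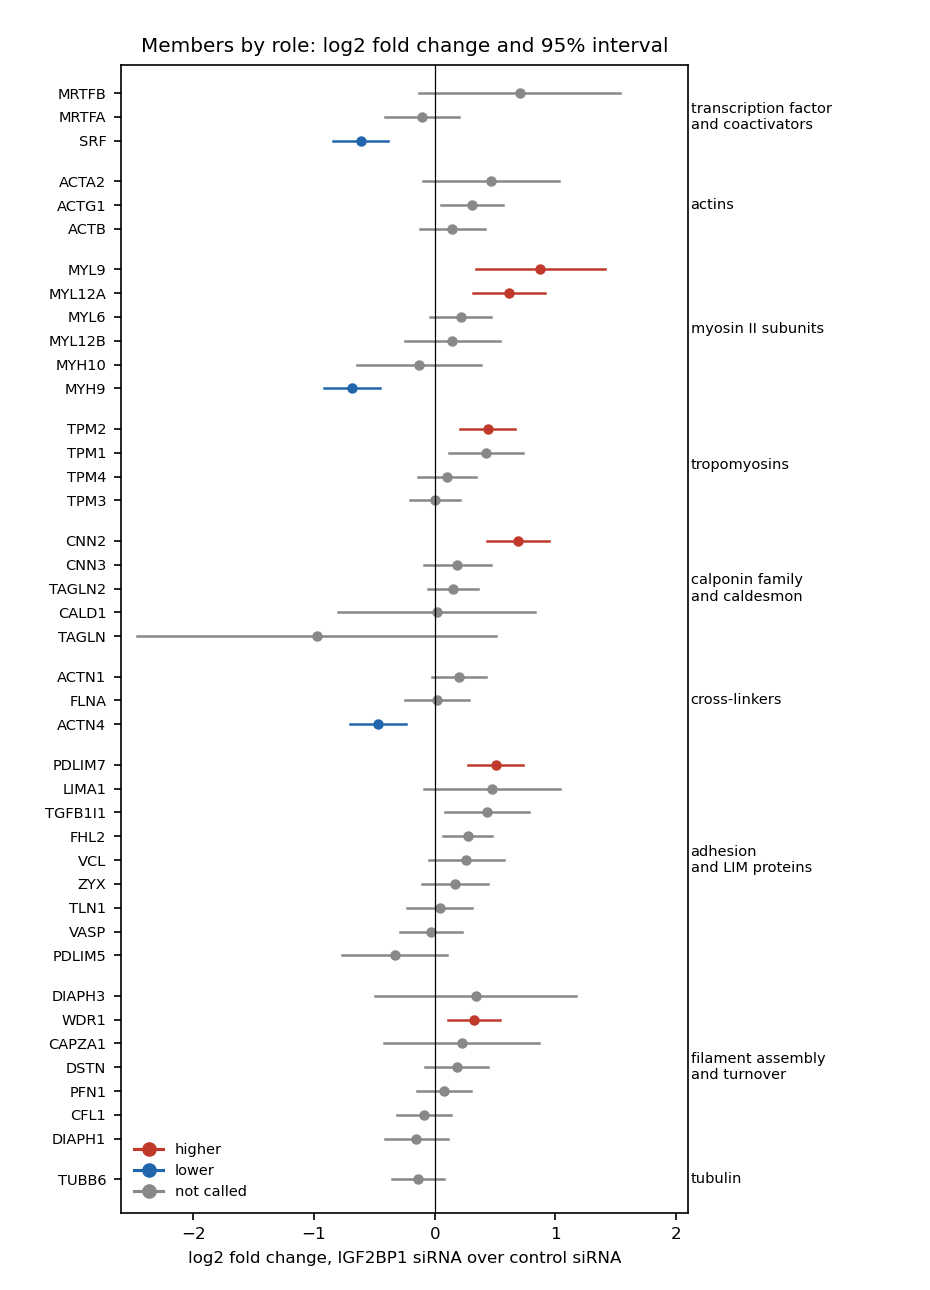
Log2 fold change (knockdown over control, x axis) of the 41 tested members, grouped by role, with points for estimates and bars for 95% intervals. The 3 blue members (SRF, MYH9, ACTN4) lie below 0 and the 6 red ones above 0, and most of the grey, uncalled members have intervals that include 0.

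SRF, the DNA-binding factor of the module (ENSG00000112658, chr6:43171299-43181507, plus strand), held 209, 219 and 191 CPM in controls 1 to 3 against 151, 124 and 130 CPM in knockdowns 1 to 3. Every knockdown library was below every control library. The means of 206 ± 14.2 and 135 ± 13.9 CPM (SD, n = 3 each) gave a 1.53-fold reduction, a log2 fold change of -0.61 (SE 0.108, 95% interval -0.84 to -0.38, adjusted p = 0.00109). The coactivators were not called. MRTFA was at 56.0, 55.3 and 53.6 CPM in the controls and 62.0, 39.8 and 51.6 CPM in the knockdown, with the knockdown libraries on both sides of the controls (log2 fold change -0.11, 95% interval -0.41 to 0.20, adjusted p = 0.707). MRTFB was scarce, at 0.964, 1.72 and 2.19 CPM in the controls and 1.98, 3.63 and 2.34 CPM in the knockdown. Its groups overlapped, and the interval of its log2 fold change of 0.70 ran from -0.13 to 1.54 (adjusted p = 0.287). Per kilobase of the deposited gene length, the level of SRF was 48.7 CPM in the controls, against 7.50 for MRTFA and 0.0980 for MRTFB. The size of these gaps depends on the length used. Deposited and principal transcript lengths are 4231 and 4202 bases for SRF, 7326 and 2901 for MRTFA, and 16580 and 8608 for MRTFB.

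The promoter of SRF is shown because it carries the element that SRF itself binds. The 120 bases before the RefSeq start (GRCh38.p14, chr6:43171149-43171268, plus strand) hold 2 CArG boxes, in capitals, the first bases of which lie 30 and 10 bases before the start.
SRF: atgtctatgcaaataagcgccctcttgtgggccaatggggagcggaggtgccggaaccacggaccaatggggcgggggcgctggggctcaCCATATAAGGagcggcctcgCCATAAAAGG
It was the only member promoter with more than 1 exact CArG box among the 72 RefSeq windows found for 39 members.

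None of the 3 actin genes was called. ACTB, the cytoplasmic beta-actin, was at 7509, 5881 and 7491 CPM in the controls and 8610, 6383 and 8125 CPM in the knockdown, and its groups overlapped (log2 fold change 0.15, 95% interval -0.12 to 0.42, adjusted p = 0.526). ACTG1, the cytoplasmic gamma-actin, was at 5696, 4983 and 5919 CPM against 7790, 5662 and 7115 CPM. Knockdown 2 fell among the controls, and the adjusted p was 0.112 for a log2 fold change of 0.31. It was called in 4 of the 14 alternative analyses (other scaling, filters and tests, a replicate block, and each library left out), among them the one without knockdown 2 (0.40, adjusted p = 0.0214). Its adjusted p ranged from 0.0214 to 0.375 over these alternatives. ACTA2, the smooth muscle alpha-actin, was at 6.30 ± 1.82 and 8.72 ± 2.38 CPM (SD, n = 3 each), with a log2 fold change of 0.46 and an adjusted p of 0.298. For ACTA2, 30.1% of exon bases are shared with genes on the opposite strand, so its low level is uncertain. These genes were below ACTA2 itself, ACTA2-AS1 at 0.195 and 0.0367 CPM and FAS at 1.33 and 0.996 CPM, control first.

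Of the 6 myosin II subunits, 2 regulatory light chains rose, 1 heavy chain fell and 3 were not called. MYH9, the heavy chain of non-muscle myosin IIA, which pulls on actin filaments (ENSG00000100345, chr22:36281277-36388067, minus strand), was at 1308, 1252 and 1299 CPM in the controls and 923, 709 and 766 CPM in the knockdown. The groups were well apart, since the highest knockdown library was below the lowest control. From 1286 ± 30.1 to 799 ± 111 CPM (SD, n = 3 each), it fell 1.61-fold (log2 fold change -0.69, SE 0.110, 95% interval -0.92 to -0.45, adjusted p = 4.90e-04). MYH10, the heavy chain of myosin IIB, was at 15.5 ± 3.74 and 14.2 ± 4.81 CPM and was not called (adjusted p = 0.792). The light chain genes that rose both encode regulatory subunits, whose phosphorylation switches the motor on. MYL12A (ENSG00000101608, chr18:3247481-3256236, plus strand) was at 43.9, 57.4 and 55.6 CPM in the controls and 65.6, 82.8 and 91.5 CPM in the knockdown, without overlap. The adjusted p was 0.00802 for a log2 fold change of 0.61 (SE 0.141). Without control 1 it was 0.47 with an adjusted p of 0.0653, and without knockdown 3 it was 0.50 with 0.0569, in a range from 4.39e-05 to 0.0653 over 14 alternatives.

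MYL9, the regulatory light chain typical of smooth muscle (ENSG00000101335, chr20:36541484-36551447, plus strand), was 1 of the scarce members, at 3.77, 3.70 and 3.45 CPM in the controls and 8.03, 6.13 and 5.95 CPM in the knockdown. These values rest on 86 to 90 reads per control library and 140 to 155 per knockdown library. Every knockdown library exceeded every control. With a log2 fold change of 0.88 (SE 0.251, 95% interval 0.34 to 1.41) the adjusted p was 0.0286, and the call was lost without control 1, 2 or 3 or knockdown 1 or 3, where the adjusted p was 0.0783, 0.0907, 0.0937, 0.121 and 0.0513 (range over alternatives 0.0105 to 0.121). MYL12B, the near twin of MYL12A, was at 87.3 ± 20.2 and 96.4 ± 20.3 CPM (SD, n = 3 each) and the essential light chain MYL6 at 516 ± 67.5 and 599 ± 68.7 CPM. Neither was called (adjusted p = 0.681 and 0.275). MYL12A and MYL12B are similar in sequence, and how reads matching both were counted is not given in the sources used here.

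Tropomyosins wind along the filament and set which proteins can bind it. TPM2 (ENSG00000198467, chr9:35681992-35690121, minus strand) was at 519, 510 and 428 CPM in the controls and 716, 635 and 627 CPM in the knockdown. All knockdown libraries were above all controls, and control 3 was the lowest. The log2 fold change of 0.44 (SE 0.107) had an adjusted p of 0.0115, and without control 3 it was 0.34 with an adjusted p of 0.0719 (range over alternatives 7.27e-04 to 0.0719). TPM1 was at 24.2, 30.4 and 32.4 CPM in the controls and 36.3, 37.9 and 42.7 CPM in the knockdown. Its groups did not overlap either, but its log2 fold change of 0.43 had an adjusted p of 0.0630. In 5 of 14 alternatives TPM1 was called, with adjusted p-values from 0.0249 to 0.296 over all of them. TPM3 and TPM4, both widely expressed, were at 270 and 76.8 CPM in the controls and 270 and 82.4 CPM in the knockdown. Their log2 fold changes were 0.00 and 0.10. The interval for TPM3 ran from -0.21 to 0.21, and the sign of its estimate was reversed in 8 alternatives, RLE scaling among them.

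In the calponin family, CNN2, a calponin that binds actin and stabilises it against the motor (ENSG00000064666, chr19:1026581-1039068, plus strand), had 483, 441 and 486 CPM in the controls and 900.0, 636 and 735 CPM in the knockdown. Knockdown 1 was the highest, and all 3 knockdown libraries were above the controls. From 470 ± 25.1 to 757 ± 133 CPM (SD, n = 3 each), CNN2 rose 1.61-fold (log2 fold change 0.69, SE 0.121, 95% interval 0.43 to 0.94, adjusted p = 0.00104). An overlapping gene on the opposite strand, AC011558.1, shares 9.27% of the exon bases of CNN2 and was at 1.82 and 3.96 CPM, far below CNN2 itself. TAGLN2, a transgelin of the same family and 1 of the most abundant members, was at 1865, 1732 and 1847 CPM against 1989, 1900 and 2161 CPM. Its groups did not overlap, yet the adjusted p was 0.366 for a log2 fold change of 0.15. CNN3 was at 31.4 ± 1.94 and 35.7 ± 2.09 CPM (adjusted p = 0.411).

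The smooth muscle forms of this family, TAGLN and CNN1, were near the limit of detection. TAGLN, a smooth muscle transgelin, had 4 to 35 reads per library and a log2 fold change of -0.98 with an interval from -2.47 to 0.51. Its opposite-strand neighbour PCSK7, which shares 11.4% of its exon bases, was at 69.5 and 60.5 CPM, so the level of TAGLN is uncertain. CNN1 had 0 reads in the 3 controls, which allows up to 0.131, 0.129 and 0.115 CPM in controls 1 to 3, and 3 reads in knockdown 3 alone, so no fold is given. CALD1 (caldesmon) was better covered, with 42 to 158 reads per library, at 3.66 ± 2.18 and 3.72 ± 1.01 CPM (SD, n = 3 each). Its libraries spread from 1.81 to 6.06 CPM in the controls, and the interval of its log2 fold change of 0.02 ran from -0.80 to 0.83.

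The promoter of CNN2 is shown because, of the rising members with a RefSeq window, it alone held an exact CArG box there. The 120 bases before the RefSeq start (GRCh38.p14, chr19:1026488-1026607, plus strand) hold it, in capitals, with its first base 89 bases before the start.
CNN2: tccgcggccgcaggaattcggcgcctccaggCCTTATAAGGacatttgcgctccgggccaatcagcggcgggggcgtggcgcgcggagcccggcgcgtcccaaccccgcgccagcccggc
CNN2 and SRF both carry the element that SRF binds. The mRNA of CNN2 rose and that of SRF fell, and whether SRF acts on either box in these cells was not tested.

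Alpha-actinins tie filaments into bundles and to adhesions. ACTN4, the form linked to motile tumour cells (ENSG00000130402, chr19:38647649-38731583, plus strand), was at 725, 621 and 672 CPM in the controls and 530, 420 and 508 CPM in the knockdown. The groups did not overlap. ACTN4 fell 1.38-fold (log2 fold change -0.47, SE 0.111, 95% interval -0.70 to -0.23, adjusted p = 0.00969). Its opposite-strand neighbour CAPN12, which shares 14.2% of its exon bases, was at 6.04 and 6.05 CPM. ACTN1, its relative of stress fibres and focal adhesions, was at 742, 641 and 744 CPM against 887, 742 and 814 CPM, with knockdown 2 just below controls 1 and 3. Its log2 fold change of 0.20 had an interval from -0.03 to 0.42 and an adjusted p of 0.259. Filamin A (FLNA), which links filaments at angles, was at 2408 ± 101 and 2438 ± 484 CPM (log2 fold change 0.02, adjusted p = 0.951), with knockdown 1 above and knockdown 2 below all controls.

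Of the 9 adhesion and LIM-domain proteins, 1 was called. PDLIM7 (also called Enigma), a PDZ and LIM scaffold that sits on actin bundles (ENSG00000196923, chr5:177483394-177497606, minus strand), was at 331, 283 and 296 CPM in the controls and 450, 385 and 458 CPM in the knockdown. Each knockdown library was above each control. The log2 fold change was 0.50 (SE 0.107, 95% interval 0.28 to 0.73, adjusted p = 0.00452). Its relative PDLIM5 was at 9.42, 9.30 and 10.9 CPM against 7.59, 8.97 and 7.03 CPM, lower in every knockdown library, with a log2 fold change of -0.33 and an adjusted p of 0.347. FHL2, a LIM-only coregulator of SRF, was at 224, 224 and 229 CPM against 267, 257 and 292 CPM. Its groups did not overlap, but the adjusted p was 0.0797 (log2 fold change 0.27), and it was called in 3 of 14 alternatives (range of adjusted p 0.0114 to 0.296). The focal adhesion adaptor TGFB1I1 (Hic-5) was at 28.1 ± 3.00 and 37.8 ± 8.11 CPM (SD, n = 3 each; 0.43, adjusted p = 0.0989) and was likewise called in 3 alternatives (0.0172 to 0.346).

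The core of the focal adhesion was not called. Vinculin (VCL), which reinforces the link from talin to actin, was at 0.26 on the log2 fold scale (adjusted p = 0.291). Zyxin (ZYX), a mechanosensor of strained fibres, had 0.17 (0.468), talin (TLN1), which activates integrins, 0.04 (0.887), and VASP, an elongation factor at filament tips, -0.03 (0.910). LIMA1 (EPLIN), which stabilises filaments at junctions, was at 8.49 ± 3.33 and 11.8 ± 2.42 CPM (0.47, adjusted p = 0.292).

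Among the 7 genes of filament assembly and turnover, WDR1 (AIP1), which speeds the dismantling of filaments by cofilin (ENSG00000071127, chr4:10074339-10116949, minus strand), was the only 1 called. It was at 575, 544 and 565 CPM in the controls and 755, 630 and 723 CPM in the knockdown. The groups did not overlap, and the spread was wider in the knockdown. The log2 fold change was 0.32 (SE 0.102, 95% interval 0.11 to 0.54, adjusted p = 0.0454). The call was lost with RLE scaling (0.31, adjusted p = 0.0731) and without any library except knockdown 2, with adjusted p-values up to 0.164 without control 2 (range 0.00616 to 0.164 over 14 alternatives), so it is the least firm of the 9. Cofilin itself (CFL1, log2 fold change -0.09, adjusted p = 0.663), its relative DSTN (0.18, 0.401), profilin (PFN1, 0.08, 0.710), the capping subunit CAPZA1 (0.22, 0.709) and the formins DIAPH1 (-0.15, 0.488) and DIAPH3 (0.34, 0.653), which extend filaments, were not called. TUBB6, the beta-tubulin in the module, was at 403 ± 26.9 and 366 ± 20.9 CPM (-0.14, adjusted p = 0.428).

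**Figure D2:**
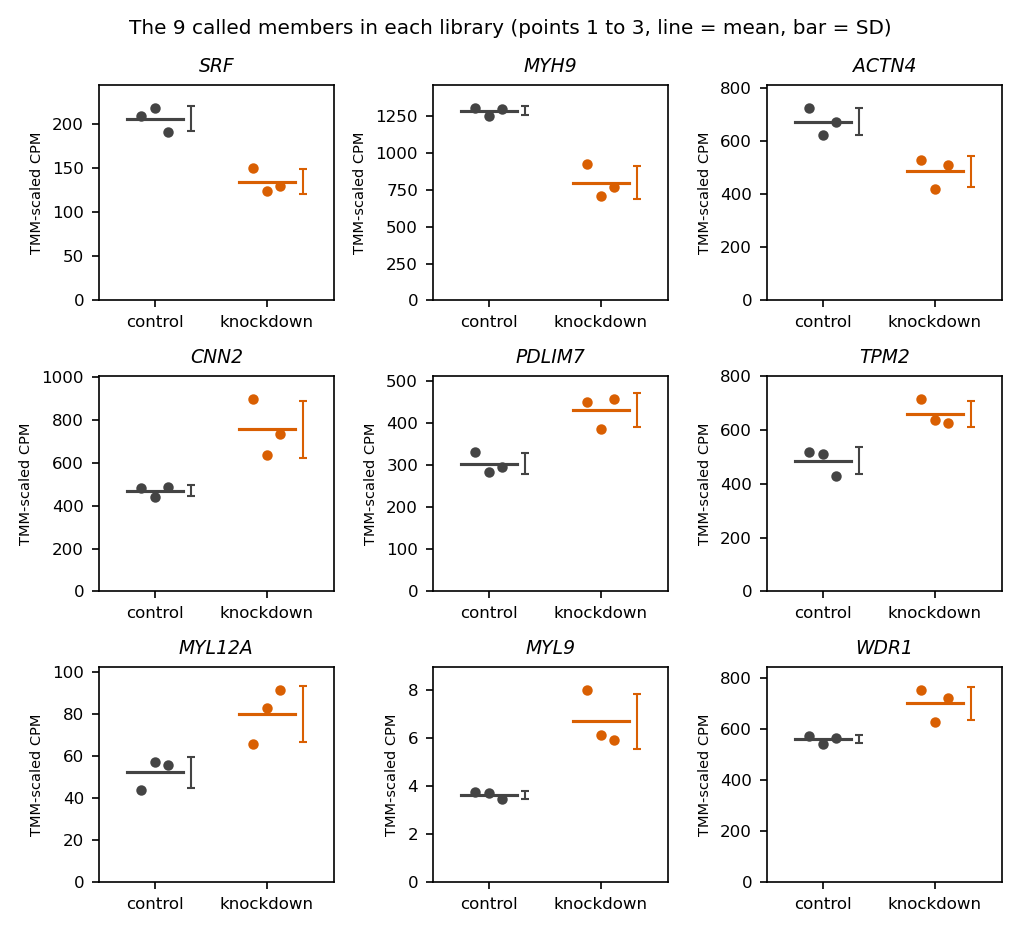
TMM-scaled CPM (y axis, from 0) of the 9 called members in each of 3 control and 3 knockdown libraries, with points for libraries, lines for means and bars for the SD. In each panel the groups do not overlap. Knockdown 1, the leftmost orange point, is the highest of its group for SRF, MYH9, ACTN4, CNN2, TPM2, MYL9 and WDR1.

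Annotated pseudogenes named after 17 of the members took at most 3.14% as many reads as their parent (TPM4) in any library, and at most 0.0362% for ACTB. ACTB and ACTG1 are alike in coding sequence, so their split depends on how shared reads were counted. Levels were compared between genes as CPM per kilobase of the deposited gene length. In the controls PFN1 was highest at 1614, followed by ACTB at 1580, ACTG1 at 1365, TAGLN2 at 802 and CFL1 at 530, while TAGLN, MRTFB and CNN1 were lowest at 0.131, 0.0980 and 0. This order depends on the length used. Deposited and principal transcript lengths are 4405 and 1921 bases for ACTB, and 1599 and 1291 for PFN1. Without length scaling the control means were 6960 CPM for ACTB and 2581 CPM for PFN1. The 3 falling members moved down this order, SRF from rank 18 to 22, MYH9 from 13 to 17 and ACTN4 from 10 to 13, while of the rising members PDLIM7 moved up from 14 to 11, MYL9 from 34 to 32, CNN2 from 8 to 7, MYL12A from 25 to 24 and WDR1 from 22 to 21, and TPM2 moved down from 7 to 8. The 42 members together took 3.05%, 2.73% and 3.03% of all reads in the control libraries against 3.65%, 3.09% and 3.39% in the knockdown. Those shares of unscaled library totals did not overlap between groups, whereas on the TMM scale the summed level of the members did, at 28059 to 31802 CPM in the controls and 28918 to 35910 CPM in the knockdown.

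**Figure D3:**
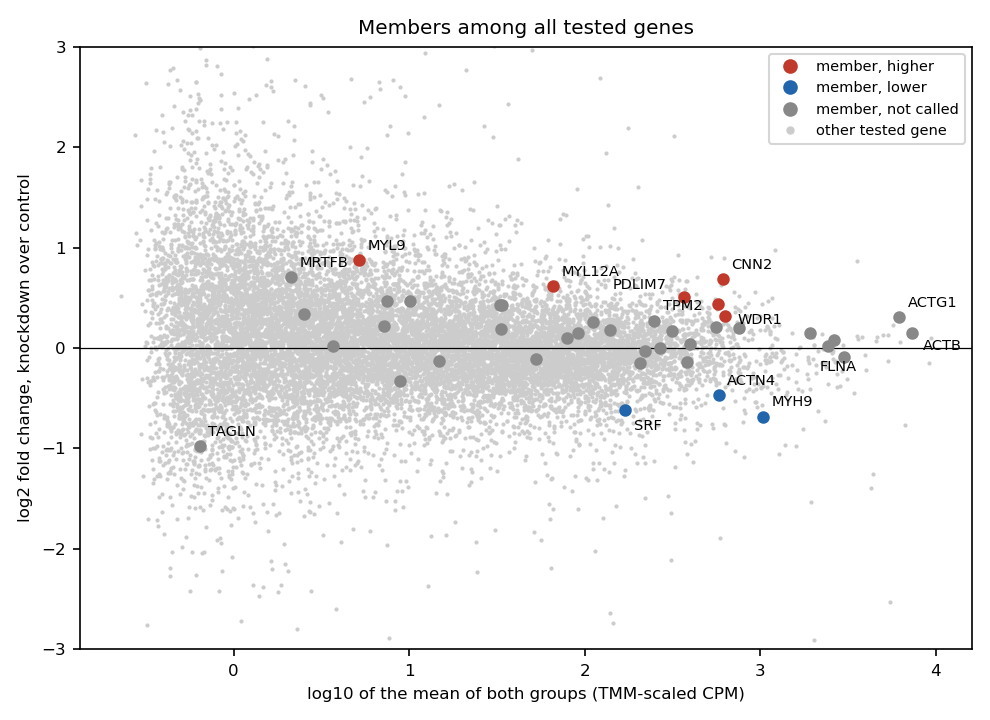
Log10 of the mean TMM-scaled CPM of both groups (x axis) against the log2 fold change (y axis) for all tested genes in light grey and the members as larger points. Most of the called members sit in the upper range of expression at modest fold changes, MYL9 is the exception at low expression, and 36 tested genes beyond a log2 fold change of 3 in size are not drawn.

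Shares within families, on the scale of CPM per kilobase, describe the make-up of the mRNA measured for each set of related genes. In the transgelins, the heavy chains MYH9 and MYH10, the coactivators, formins and cofilins every share overlapped between groups. ACTN4 made up 69.5%, 69.4% and 67.9% of the alpha-actinin mRNA measured in controls 1 to 3 against 58.3%, 57.0% and 59.3% in knockdowns 1 to 3, with ACTN1 as the remainder. The shift of -10.7 percentage points was far larger than the spread between libraries (SD 0.931 and 1.18) and lay between -11.3 and -10.1 when any library was left out. Which form prevailed depends on the length used: with the principal transcript length ACTN4 had 41.9% in the controls and 31.2% in the knockdown, a shift of the same size. Among regulatory light chains MYL12A went from 25.3% ± 1.82 to 31.4% ± 0.710 and MYL12B from 72.7% ± 2.32 to 65.6% ± 1.79 (SD, n = 3 each), both without overlap, whereas MYL9 had 1.95% and 2.97% with overlap.

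In the actins the balance moved by less. ACTB had 53.5% ± 1.39 in the controls and 50.8% ± 0.413 in the knockdown (SD, n = 3 each), and ACTG1 46.4% and 49.1%, with ACTA2 below 0.1% in every library. TPM2 went from 85.3% ± 1.67 to 88.4% ± 1.09 of the tropomyosin mRNA and TPM3 had 9.69%, 9.46% and 11.0% in controls 1 to 3 against 6.89%, 7.55% and 8.50% in knockdowns 1 to 3, again without overlap. With principal transcript lengths the shift of TPM2 was from 59.6% to 65.7% and that of TPM3 from 30.4% to 24.6%. Of the summed mRNA of MYH9 and MYH10, MYH9 made up 99.4% and 99.1%. The heavy chain MYH14 was not in this set. It was at 3.04 and 1.32 CPM per kilobase, against 0.475 and 0.435 for MYH10 and 75.5 and 46.9 for MYH9, control first. These levels depend on the length used, as the deposited length of MYH10 is 32700 bases and its principal transcript 7662. Without length scaling MYH14 was at 31.6 and 13.7 CPM and MYH10 at 15.5 and 14.2 CPM, control first. With 3 libraries in each group an exact permutation p cannot go below 0.10, so these shares are a description.

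**Figure D4:**
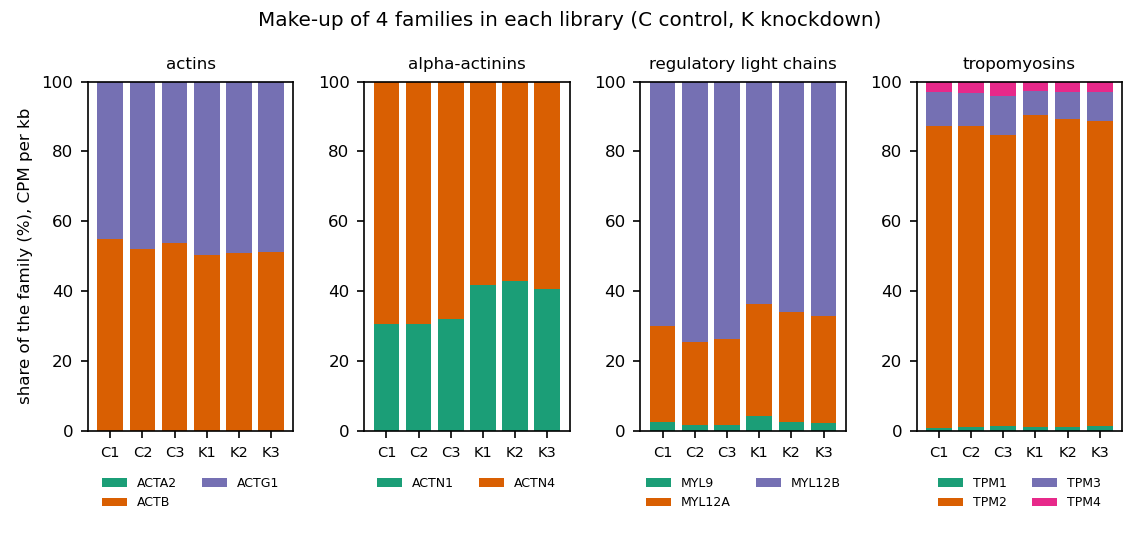
Share of each gene (y axis, % of CPM per kilobase within its family, stacked to 100%) for the actins, alpha-actinins, regulatory light chains and tropomyosins in controls 1 to 3 (C1 to C3) and knockdowns 1 to 3 (K1 to K3). The clearest step is in the alpha-actinins, where ACTN4 drops from 68.9% to 58.2% on average.

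The RefSeq promoter windows, 250 bases before to 50 after each start, were searched for the exact CArG box on both strands. Of the 39 members with a window, 8 (20.5%) held it, against 1.6% of 27305 genes with windows. By single windows the shares were 13.9% of 72 and 1.29% of 35116. Many members are known SRF/MRTF targets, so this excess may follow from the choice of genes and is a description only. ACTB, TAGLN and MYL9 had no entry. Besides SRF and CNN2 the box was found in ACTG1, ACTN1, FHL2, FLNA, TGFB1I1 and TPM4, none of which was called. The sequences show the box in capitals with 20 bases on either side, read 5′ to 3′ on the strand of the gene, for the 6 uncalled genes that share the element with SRF and CNN2. They lie at chr17:81512864-81512913 (minus), chr14:68977708-68977757 (minus), chr2:105399081-105399130 and chr2:105438585-105438634 (both minus), chrX:154374699-154374748 (minus), chr16:31473134-31473183 (plus) and chr19:16067345-16067394 (plus) of GRCh38.p14, in the order printed.
ACTG1: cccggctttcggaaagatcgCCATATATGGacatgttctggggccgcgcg
ACTN1: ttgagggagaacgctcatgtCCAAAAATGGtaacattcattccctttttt
FHL2, downstream start: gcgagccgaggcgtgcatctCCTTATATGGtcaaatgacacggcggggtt
FHL2, upstream start: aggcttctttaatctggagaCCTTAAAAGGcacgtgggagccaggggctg
FLNA: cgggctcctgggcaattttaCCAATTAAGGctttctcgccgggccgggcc
TGFB1I1: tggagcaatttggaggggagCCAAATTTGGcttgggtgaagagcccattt
TPM4: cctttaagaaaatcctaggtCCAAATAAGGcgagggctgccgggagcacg
Of the 8 members with the box, 1 rose (CNN2) and 1 fell (SRF), and their median log2 fold change was 0.24. Of the 30 tested members with a window but no exact box, 4 rose and 2 fell, with a median of 0.16. Both sets included rises and falls, and whether the box has a part in them was not tested.

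Because YAP1 acts through TEAD factors, the same windows were searched for the TEAD motif GGAATG or its complement CATTCC. It was present in 14 of the 39 members (35.9%), against 16.7% of all genes with windows. Genes with several starts have more chances of a match, and by single windows the shares were 20.8% of 72 and 14% of all. A match in a window is a description of the letters and not evidence of binding.

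The other genes of the pathway were read from 5 further lists with 104 genes, of which 93 were tested and 14 called (9 without control 1 or control 2). Across all 14649 tested genes 12.9% were called, 6.27% higher and 6.66% lower, with a median log2 fold change of 0.03. In the list of upstream regulators of filaments, myosin and cofilin, 3 of 21 tested genes rose and 2 fell (23.8% called). Their median log2 fold change was 0.24. RHOC, known from motile cells (313 ± 6.74 to 404 ± 15.9 CPM, SD, n = 3 each; 0.37), MYLK, the kinase of the regulatory light chains (30.7 to 51.1 CPM; 0.73), and SSH1, the phosphatase that activates cofilin (51.2 ± 4.20 to 72.5 ± 10.5 CPM; 0.50), rose. LIMK1, the kinase that inactivates cofilin (280 ± 23.8 to 187 ± 30.5 CPM; -0.58, adjusted p = 0.00411), and PAK1, a kinase upstream of it (41.4 ± 5.27 to 27.1 ± 3.86 CPM; -0.61, adjusted p = 0.0117), fell. The call of RHOC (adjusted p = 0.0163) was lost without any of the controls or knockdown 3, that of MYLK (0.0346) without control 1 or 2 or knockdown 1 or 2 and with the replicate block (0.0555), and that of SSH1 (0.0149) without control 1 or 2 or knockdown 2, with adjusted p-values up to 0.105, 0.122 and 0.101. For PAK1 the adjusted p was 0.0534 without control 3.

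In the Arp2/3 complex and its activators, which build branched networks, 1 of 17 rose and 1 fell (11.8% called, median 0.12). They were the complex subunit ARPC4 (244 ± 24.8 to 365 ± 47.7 CPM, SD, n = 3 each; 0.58, adjusted p = 0.00307) and CYFIP1, a subunit of the WAVE regulator (114 ± 8.29 to 68.8 ± 7.62 CPM; -0.73, adjusted p = 4.60e-04). Among 32 other actin-binding proteins 3 rose and 2 fell (15.6% called, median 0.10). Filamin C (FLNC), the muscle-type relative of FLNA, rose 3-fold, from 45.3 ± 2.98 to 136 ± 35.2 CPM (log2 fold change 1.58, adjusted p = 5.72e-06), a larger log2 fold change than that of any called member. The capping protein CAPG (0.54) and profilin 2 (PFN2, 0.49) also rose, while the myosin heavy chain MYH14 (31.6 ± 1.94 to 13.7 ± 1.47 CPM; -1.21, adjusted p = 6.31e-05) and the actin monomer-binding peptide TMSB10 (-0.39) fell. The calls of PFN2 and TMSB10 (adjusted p = 0.0174 and 0.0266) were lost without control 1, control 2 or knockdown 3, with adjusted p-values up to 0.125 and 0.152, and that of TMSB10 also with no scaling factor (0.0769).

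Of 24 further genes described as SRF/MRTF targets, 16 were tested, with a median log2 fold change of 0.11. Of 7 tested ternary complex factors and other SRF partners, 0 rose and 1 fell (14.3% called, median 0.50). It was GATA6, from 16.6 ± 0.502 to 8.63 ± 1.19 CPM (SD, n = 3 each; -0.94, adjusted p = 0.00258). Log2 fold changes in this list were above 0 for 5 genes and below 0 for 2. The median was that of ELK3, and above it lay the scarce ELK4, TEAD1 and SCAI, none of them called. Their control means were 0.883, 2.27 and 2.11 CPM.

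**Figure D5:**
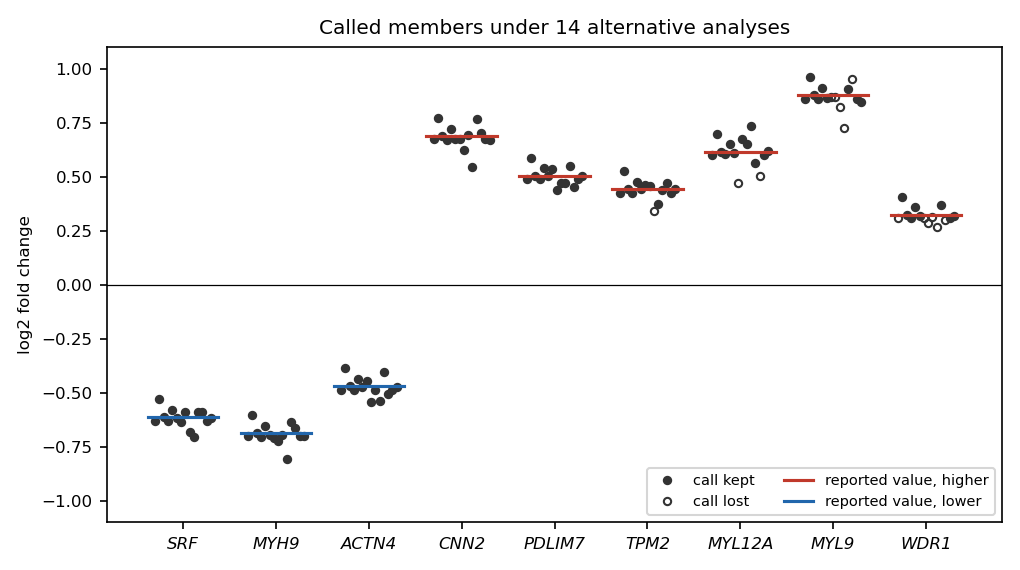
Log2 fold change (y axis) of the 9 called members in 14 alternative analyses, drawn as points, with the reported value as a coloured line and open points where the adjusted p was not under 0.05. SRF, MYH9, ACTN4, CNN2 and PDLIM7 have filled points only, while TPM2, MYL12A, MYL9 and WDR1 have 1, 2, 5 and 6 open points.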

How the data were processed

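Poly(A) RNA of 3 control and 3 IGF2BP1 siRNA libraries was analysed from the table of read counts per gene that the authors deposited, which also holds the authors' gene length in bases. The submitters' processing notes name featureCounts 2.0.0, SAMtools 1.10, HISAT2 2.1.0, cutadapt 2.8 and the build hg38 without settings. Not given in the sources used here are the annotation release, the strand option of the counting and how multi-mapping reads were treated, so genes with near-identical copies or exons shared with a gene on the opposite strand are uncertain. The table holds 62700 genes. By identifier, 5521 symbols were restored, 20356 genes were kept under their identifier. Unused columns of per-sample values numbered 0.

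The members and all gene lists were chosen with earlier results of these data known. Each member was to be named, with called members and the 3 regulators SRF, MRTFA and MRTFB given in every library. From each other pathway list the rule took up to 3 called genes per direction with the largest log2 fold change and at least 5 CPM in the higher group. Some items that these lists and the rule name are not reported here. Genes passing filterByExpr (minimum count 10, minimum total 15) were fitted with edgeR 4.0.16 in R 4.3.3 (TMM factors, robust glmQLFit, glmQLFTest, 2 groups), with Benjamini-Hochberg adjustment over 14649 genes and a threshold of 0.05. CPM is the count relative to the TMM-scaled library size. The SE is the coefficient over the root of its F statistic, and intervals are at 95%. The scripts were tested on simulated data. Alternatives were RLE factors, no factor, TMM factors without the members, no filter, a stricter filter (5 CPM in at least 3 libraries), DESeq2 1.42.0, limma-voom (limma 3.58.1), a replicate block, omission of each library in turn and a minimum fold of 1.2. Family shares were also computed with the length of the principal transcript, an alternative chosen after seeing the data.

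Library totals were between 17918496 and 26675064 reads, at which 3 reads are worth 0.115 to 0.165 CPM. Such floors cover counting error only. Coordinates come from GENCODE release 29 (GRCh38, the build hg38) and promoter sequences from RefSeq (GRCh38.p14). Motifs were searched on both strands of the RefSeq windows.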

Additional observations from a re-analysis of the deposited data

How the results depend on the processing

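Over 14 alternatives (the minimum fold apart), 5 called members (SRF, MYH9, ACTN4, CNN2, PDLIM7) stayed called, 4 lost the call in at least 1, and 4 uncalled members (ACTG1, TPM1, FHL2, TGFB1I1) gained one. Members higher numbered 10 with no scaling factor, where the all-gene median shifted by 0.085 and the share of higher calls from 48.5% to 63.2%. They were 3 to 8 without 1 library, while members lower stayed at 3. A minimum fold of 1.2 left 2 higher and 2 lower members, 972 genes in all and 8 in the other pathway lists. Without 1 library, all genes called were 1231 (without control 2) to 1948, and the other lists gave 9 (without control 1 or 2) to 17. Whether replicate numbers pair the libraries cannot be decided from 3 libraries per group. Same-number correlations of deviations were 0.179 (the highest of all pairs), 0.0863 and -0.073, and knockdown 2 correlated best with control 3 (0.166). With the replicate block 10 members were higher, 3 lower, and 2431 genes called. Members with a CArG box numbered 13 with 1 outer mismatch allowed (33.3%, against 15.6% of all genes with windows). By single windows those shares were 23.6% of member windows and 13% of all. Signs reversed in uncalled members: TPM3 with RLE scaling (-0.015), no count filter (-0.013), the block (-0.0014) and DESeq2 (-0.015), FLNA with no filter (-5.75e-04) and limma-voom (-0.0033), and VASP with no scaling factor (0.054) and the stricter filter (0.0048). Without 1 library, log2 fold changes ranged over -0.059 to 0.018 for TPM3, -0.15 to 0.1 for FLNA, -0.17 to 0.029 for VASP, -0.27 to 0.015 for MRTFA, -0.065 to 0.29 for MYL12B, -0.42 to 0.10 for MYH10, -0.13 to 0.14 for TLN1, -0.018 to 0.10 for PFN1, -0.31 to 0.58 for CALD1, -0.30 to 0.43 for CAPZA1 and -0.11 to 0.67 for DIAPH3. Of 189 family shares recomputed, 3 moved by more than 1 SD, those of TPM1 (0.405 points), TPM2 (6.06) and TPM3 (-5.77) with principal transcript lengths. Causes were not tested. CNN1, with 3 reads in all, was too shallow to test, and the other members under 5 CPM in the controls were MYL9, TAGLN, MRTFB, CALD1 and DIAPH3.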
